A study of Mus musculus with 171 samples.

Results

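The 37 genes of the mouse mitochondrial genome were followed in single cells of blastocysts with and without Stat3. Members were the rows whose Ensembl identifier maps to a symbol starting with mt- on chromosome M, and they were 37 of the 49671 rows of the count table. They comprised 13 mRNAs, 2 rRNAs and 22 tRNAs, and the classes were described apart. The rule for members uses annotation alone, and it was set with earlier results of these data known.

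The data were RNA sequencing counts of single cells from 17 embryos, taken at embryonic day (E) 3.5 and E3.75. Inner cell mass (ICM) cells at E3.5 came from 5 Stat3 -/- embryos (MUT, 55 cells) and 5 Stat3 +/+ embryos (WT, 64 cells). At E3.75 the cells were labelled EPI (epiblast, the precursor of the fetus) or PrE (primitive endoderm, the precursor of yolk sac endoderm), with 9 EPI and 14 PrE cells from 4 MUT embryos and 19 EPI and 10 PrE cells from 3 WT embryos. Counts were summed per embryo and lineage into 24 sums, which are the replicates. Embryos were read from the first number of each title, a reading that the labels leave unstated. No allele other than Stat3, no strain and no treatment is named, and the stage of the EPI and PrE cells is taken from their titles, because their source label reads E3.5. STAT3 is a transcription factor downstream of LIF that sustains naive pluripotency, and a pool of the protein has been described in mitochondria.

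The mitochondrial genome is a small circle present in many copies per cell. Both strands are transcribed into long precursors, and tRNAs that lie between the other genes are cut out to release mRNAs and rRNAs. The mRNAs encode core subunits of respiratory complexes I, III, IV and V, and the rRNAs build the mitochondrial ribosome that translates them. Oocytes supply the early embryo with its mitochondria, and copies of mitochondrial DNA inserted into nuclear chromosomes can resemble the genes closely.

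Cell depth ran from 163822 to 25095390 counts in the ICM and from 7528770 to 14767390 at E3.75, and the sums held 8117787 to 122331780 counts. The EPI sum of MUT embryo 2 and the PrE sum of WT embryo 3 rested on 1 cell each. Stat3 ran from 0.0349 to 27.1 CPM (counts scaled to a common library total) in MUT sums and from 26.3 to 177 in WT sums, and within each lineage every MUT sum lay below every WT sum. Its log2 fold change was -3.50 in the ICM, -3.93 in EPI and -2.86 in PrE, and edgeR's adjusted p was 0.684, 0.972 and 0.737. The 6 EPI markers summed to 1391 to 3401 CPM in EPI and 32.5 to 1508 in PrE, and the 6 PrE markers to 862 to 2262 CPM in PrE and 5.51 to 103 in EPI. The 8 trophectoderm markers summed to 4012 CPM in the PrE sum of WT embryo 1, against 128 and 388 in the other WT PrE sums. That same sum held the highest EPI marker level of PrE, 1508 CPM, and the lowest PrE marker level, 862 CPM. Its label was kept as given.

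The 15 mRNA and rRNA genes spanned a wide range of levels per kilobase (kb) of gene length. Averaged over the 24 sums, mt-Rnr2, the large-subunit 16S rRNA (chrM:1094-2675, build mm10), had 24477 CPM per kb. The complex I subunit mt-Nd1 had 14469, the catalytic complex IV subunit mt-Co1 had 8952 and mt-Cytb, the only complex III subunit encoded there, had 7399 CPM per kb. The small-subunit 12S rRNA mt-Rnr1 had 3096 CPM per kb.

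A middle tier held other complex I subunits. Per kb, mt-Nd5 averaged 1560 CPM, mt-Nd4 averaged 1215 CPM and mt-Nd2 averaged 1150 CPM. The complex I subunit mt-Nd6 (chrM:13552-14070), the only mRNA on the minus strand, averaged 374 CPM per kb. The remaining 6 mRNAs lay far lower, between 0.965 and 20.5 CPM per kb. They were mt-Co2 and mt-Co3 of complex IV, mt-Atp6 and mt-Atp8 of complex V (ATP synthase), and mt-Nd3 and mt-Nd4l of complex I.

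**Figure D1:**
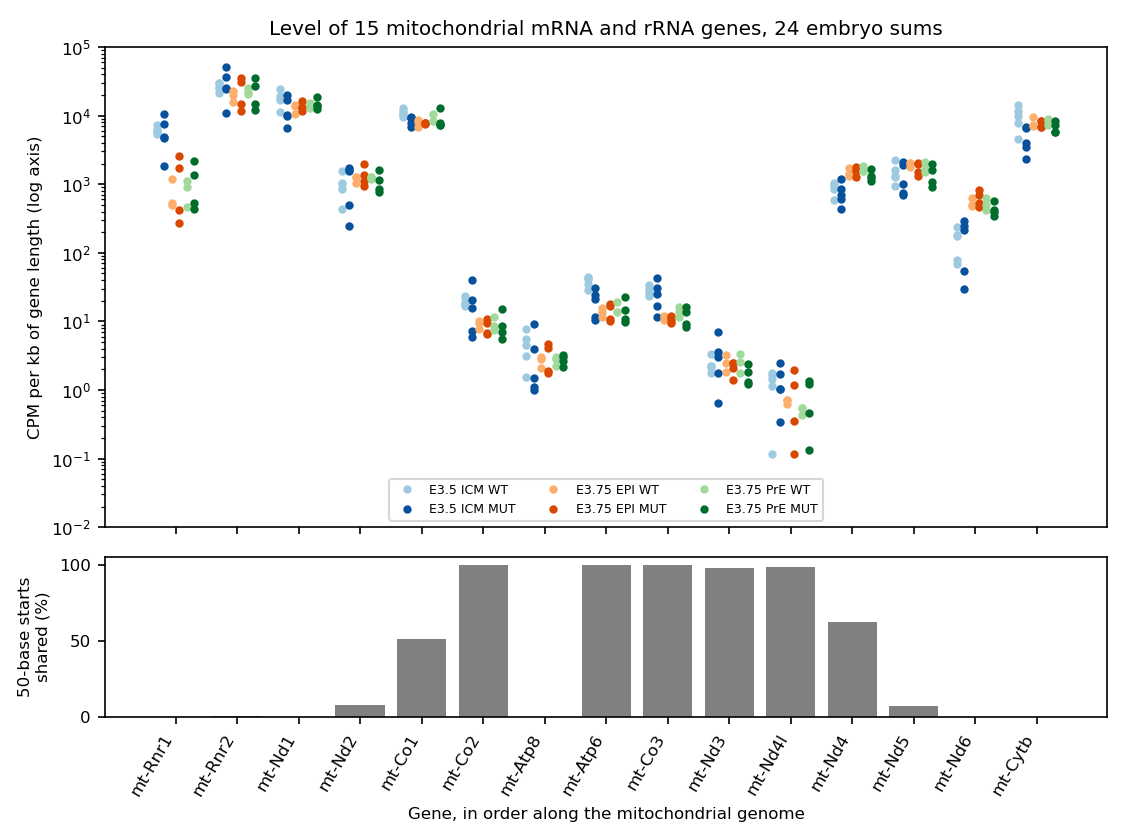
Level of each mRNA and rRNA gene in CPM per kb of gene length (log axis, 1 point per embryo sum, coloured by group), above the percent of its 50-base starts that also occur in another annotated transcript. The low genes mt-Co2, mt-Atp6, mt-Co3, mt-Nd3 and mt-Nd4l have 98.0% to 100% of starts shared. The low gene mt-Atp8 has 0.0% shared with annotated transcripts. The unannotated stretch between the nuclear copies of its neighbours was not compared.

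Of those 6 low genes, 5 have near-perfect annotated nuclear copies. Every 50-base stretch of the GENCODE transcripts was compared with all other annotated transcripts, to see where a read of that length would have a second match. The share of such starts was 100% for mt-Co2, 99.9% for mt-Co3, 99.5% for mt-Atp6, 98.8% for mt-Nd4l and 98.0% for mt-Nd3. It was 62.2% for mt-Nd4 and 51.1% for mt-Co1, 8.19% for mt-Nd2, 7.61% for mt-Nd5, 1.04% for mt-Rnr2 and 0.0% for mt-Nd1, mt-Nd6, mt-Cytb, mt-Rnr1 and mt-Atp8. Most shared starts lie in a block of annotated pseudogenes on the minus strand of chr1:24611535-24616197. No source used here states how reads with several matches were counted, and its part in these levels was not tested.

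For 3 of these low genes the row of the closest nuclear copy held a count of the same order as the gene. Gm28661, identical to mt-Co2 over 681 aligned bases, had 9684 counts in all cells against 10313 for mt-Co2. Gm28437, identical to mt-Co3 over 783 bases, had 16288 counts against 16639 for mt-Co3. Gm10925, identical to mt-Atp6 over 678 bases, had 26278 counts against 17824.

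The copies of mt-Nd4l and mt-Nd3 held more counts than the genes. Gm10222, the copy of mt-Nd4l, had 2430 counts against 310 for mt-Nd4l. Gm28438 had 125092 counts and mt-Nd3 had 875, although the pair differ at 1 of 345 aligned bases. That difference is T3C, counted from 1 at the 5′ end of the gene with the mt-Nd3 base first. The starts of mt-Nd3 and Gm28438 are shown to place the difference, which is in capitals.
mt-Nd3: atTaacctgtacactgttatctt
Gm28438: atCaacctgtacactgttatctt
Sequence beyond the alignment was not compared. Within the alignment a read must cover the third base to tell these rows apart, so the level printed for mt-Nd3 is uncertain. The same holds for mt-Co2, mt-Co3, mt-Atp6 and mt-Nd4l, whose values below cover only the reads assigned to them.

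Among the low genes, mt-Atp8 (chrM:7766-7969), a short complex V subunit, had no annotated copy and 732 counts in all cells. It overlaps mt-Atp6 by 43 bases on the same strand. The end of mt-Atp8 is shown with the overlap, which opens with the start codon of mt-Atp6, in capitals.
mt-Atp8: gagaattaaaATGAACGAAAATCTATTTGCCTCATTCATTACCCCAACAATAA
Reads in the capitals match both genes. The stretch between Gm10925 and Gm28661, the copies of the genes on either side, holds no annotated transcript and was not compared here.

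The summed mRNA share of all counts differed most between genotypes in the ICM. In WT ICM it was 3.46%, 4.88%, 5.22%, 6.09% and 5.56% in embryos 13, 16, 20, 21 and 22. In MUT ICM it was 2.88%, 2.35%, 3.12%, 4.83% and 4.53% in embryos 2, 10, 18, 23 and 24. Of the MUT embryos, 3 lay below every WT embryo and the other two overlapped the WT range.

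Means were 3.54% ± 1.08 in MUT and 5.04% ± 0.993 in WT ICM (SD, n = 5 each). At E3.75 the genotypes overlapped, at 4.07% ± 0.178 (n = 4) and 4.05% ± 0.494 (n = 3) in MUT and WT EPI, and 4.12% ± 0.955 and 4.40% ± 0.206 in MUT and WT PrE. As sums over the members, these shares carry no test. Single cells spread more widely within ICM embryos, with a mean coefficient of variation of 34.1% in MUT and 34.8% in WT, than within E3.75 embryos, at 11.3% to 16.6%. ICM cells were also less deep, with medians of 3404700 counts in MUT and 5064700 in WT, against 10408000 to 11168800 in the E3.75 groups. The 7 cells flagged as shallow against the other cells of their own stage were all from E3.5.

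**Figure D2:**
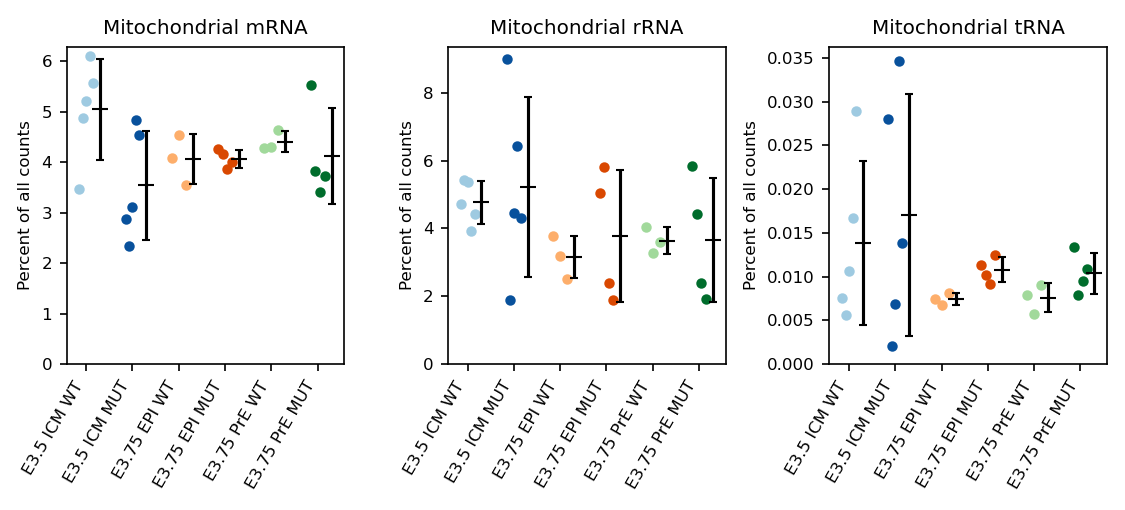
Summed mRNA, rRNA and tRNA counts of the mitochondrial genome as percent of all counts, 1 point per embryo sum, with mean ± SD (bars) per group. WT ICM holds the highest mean mRNA share (5.04%), and MUT groups span wider rRNA ranges than WT groups of the same lineage. At E3.75 the MUT embryos carry title letters A and B and the WT embryos A and C.

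The ICM titles carry letters D to H whose meaning is not given, and each letter held cells of both genotypes. The same embryos recur across the letters, and within each letter single embryos of the genotypes overlapped. In D, for example, MUT embryo 23 had 5.14% and WT embryo 16 had 3.66%. Letter G held 3 WT cells from 2 embryos. The mRNA share, as a mean over embryos, was lower in MUT within all 5 letters. It was 3.65% against 5.33% in D, 3.29% against 4.83% in E and 3.12% against 4.48% in F. It was 3.24% against 5.55% in G and 2.39% against 4.37% in H. Marker levels also differed between these genotypes, with EPI markers at 511 to 1286 CPM in MUT and 2032 to 2908 CPM in WT ICM. PrE markers ran from 63.9 to 1639 and from 134 to 559 CPM, and trophectoderm markers from 170 to 467 and from 241 to 415 CPM. Their part in the mRNA share was not tested, and fewer cells of a type and less RNA per cell cannot be told apart in the sums. Over single cells, the median share was 2.53% in MUT ICM (quartiles 2.10% and 3.39%, 55 cells). In WT ICM it was 5.05% (quartiles 3.63% and 5.93%, 64 cells). Cells of an embryo are not replicates, so these values are a description only.

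The mRNA with the smallest p between genotypes in the ICM was mt-Cytb (chrM:14145-15288). It stood at 3930, 2682, 4629, 7615 and 7765 CPM in MUT and at 5138, 11372, 8915, 13554 and 16464 CPM in WT. All WT embryos but embryo 13 lay above every MUT embryo. The log2 fold change was -1.12 (SE 0.40), and edgeR's quasi-likelihood test gave an adjusted p of 0.727 over all genes. The next was mt-Co1, at 10444 to 14722 CPM in MUT and 14793 to 19868 CPM in WT, with ranges that did not overlap. Its log2 fold change was -0.45 (SE 0.26, edgeR adjusted p = 0.798).

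Under edgeR's adjusted threshold of 0.05, 0 of 26 members tested were called in the ICM between genotypes, where 0.0% of all 12270 genes were called. At an unadjusted p under 0.05 there was 1 member, beside 6.64% of all genes. DESeq2 and limma-trend called 0 members, beside 0.88% and 0.0163% of all genes. With the title letter in a limma-trend model, 2 members were called lower in MUT, mt-Cytb at -1.10 (SE 0.23, adjusted p = 0.0194) and mt-Nd1 at -0.75 (SE 0.18, adjusted p = 0.0372), beside 0.774% of all genes. That model weights embryo and letter means, so it differs from the sums in more than the letter. Of 13 mRNAs 9 were lower and 4 higher in MUT, with a median log2 fold change of -0.25 beside -0.05 over all genes tested. Sex was uneven between the ICM genotypes by Y-linked and Xist reads. MUT embryos 2, 10, 18 and 24 read as female and embryo 23 as male. WT embryos 13, 16 and 20 read as male and embryos 21 and 22 as female. With sex in the model edgeR called 0 of all 12270 genes.

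In EPI and PrE the genotype comparison called no member. In EPI it was 0 of 27 tested beside 0.0% of all genes, with 1 member at an unadjusted p under 0.05 beside 4.63% of all genes. In PrE it was 0 of 24 beside 0.0%, with 0 members at an unadjusted p under 0.05 beside 4.63%. DESeq2 called 0 in both, beside 1.52% of all genes in EPI and 1.33% in PrE, and limma-trend called 0, beside 0.0% in each. The smallest p in EPI was that of mt-Ts2, a serine tRNA, at a log2 fold change of 2.36 (SE 0.86, edgeR adjusted p = 0.791), followed by mt-Tf, the phenylalanine tRNA, at 2.64 (SE 1.53, adjusted p = 1.0). In PrE it was mt-Nd4, at -0.31 (SE 0.19, edgeR adjusted p = 1.0), then mt-Cytb, at -0.26 (SE 0.16). Sex follows genotype closely here, since all 4 MUT embryos and 1 of 3 WT embryos were male by Y-linked and Xist reads, so sex and genotype are largely confounded.

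**Figure D3:**
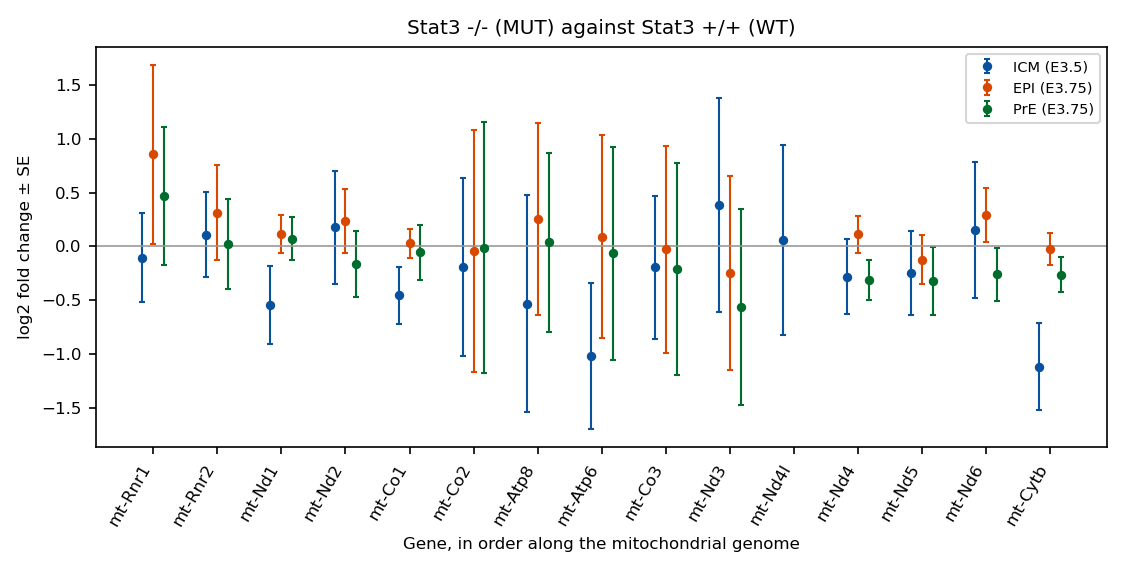
log2 fold change of MUT over WT (points) with SE (bars) for the 15 mRNA and rRNA genes in ICM, EPI and PrE. In the ICM mt-Cytb lies at -1.12, and in EPI and PrE at -0.02 and -0.26.

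Differences of the genotype effect between lineages were tested as interactions over all 24 sums. These fits treated EPI and PrE sums of the same embryo as independent, and no replicate block was fitted for them. EdgeR called 0 of 28 members in each of 3 contrasts, where 0.0% of all genes were called. DESeq2 called 0 as well, beside 4.29% of all genes for EPI against ICM, 5.27% for PrE against ICM and 4.09% for EPI against PrE. At an unadjusted p under 0.05 the counts were 1, 0 and 0 in that order, beside 10.4%, 10.6% and 6.96% of all genes. The smallest p was that of mt-Cytb in EPI against ICM, at a log2 difference of 1.09 (SE 0.45, edgeR adjusted p = 0.371), then mt-Co1 at 0.48 (SE 0.28, adjusted p = 0.596). In PrE against ICM the smallest p values were those of mt-Cytb, at 0.87 (SE 0.45, edgeR adjusted p = 0.514), and mt-Nd1, at 0.63 (SE 0.41). In EPI against PrE they were those of mt-Nd4, at 0.40 (SE 0.41), and mt-Nd6, at 0.53 (SE 0.80), both with an edgeR adjusted p of 1.0.

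Of the 2 rRNAs, 1 was called between the stages. The 12S rRNA mt-Rnr1 (chrM:70-1024) had 5125, 6953, 5902, 5485 and 5860 CPM in WT ICM. In WT EPI it had 1122, 471 and 508 CPM and in WT PrE 1063, 448 and 875 CPM in embryos 1, 2 and 3. Every WT ICM sum lay above every WT sum of E3.75.

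The level of mt-Rnr1 fell by 3.38 on the log2 scale in WT EPI against ICM (SE 0.37, edgeR adjusted p = 0.0127) and by 3.13 in WT PrE against ICM (SE 0.33, adjusted p = 0.00856). It was the 1 member called of 27 in EPI against ICM, beside 0.308% of all genes, and the 1 of 28 in PrE against ICM, beside 0.349%. These comparisons share the ICM sums. Without EPI embryo 2 or 3 the log2 fold change was -3.14 or -3.16 with an adjusted p of 0.108 or 0.122, and without PrE embryo 3 it was -3.21 with 0.0653. The title letters of E3.5 and E3.75 cells do not overlap, so letter and stage cannot be told apart.

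In MUT, mt-Rnr1 had 9927, 1775, 4643, 7165 and 4521 CPM in the ICM, 1665, 2492, 396 and 258 CPM in EPI and 2102, 1280, 514 and 417 CPM in PrE. ICM embryo 10, the deepest MUT sum, overlapped the E3.75 range. The log2 fold change was -2.45 (SE 0.75, edgeR adjusted p = 0.234) in EPI and -2.56 (SE 0.65, adjusted p = 0.117) in PrE. With edgeR 0 of 27 and 0 of 26 members were called, beside 0.0682% and 0.507% of all genes, and 2 and 1 members had an unadjusted p under 0.05, beside 8.08% and 9.46%. DESeq2 called 1 and 1, beside 3.53% and 4.62% of all genes, and limma-trend 2 and 1, beside 1.9% and 5.23%. mt-Rnr1 was among them each time. Without ICM embryo 10 the PrE comparison called mt-Rnr1 at -2.84 (edgeR adjusted p = 0.0406).

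The 16S rRNA mt-Rnr2 did not pass edgeR's threshold between the stages. It had 33696 to 47694 CPM in WT ICM, 24669 to 36557 in WT EPI and 32377 to 39495 in WT PrE, so the ranges overlapped. Its log2 fold change in WT was -0.77 in EPI and -0.50 in PrE (SE 0.22 and 0.19, edgeR adjusted p = 0.145 and 0.255). Limma-trend on means over cells called it lower in WT EPI, at -0.51 (SE 0.13, adjusted p = 0.0108), where the median of all genes was 0.68.

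The ratio of mt-Rnr2 to mt-Rnr1 separated the stages in every sum. It ran from 6.14 to 9.57 over the 10 ICM sums and from 22.3 to 72.2 over the 14 sums of E3.75. Within a sum the ratio does not depend on scaling to the other genes. The genotypes overlapped at E3.75, and in the ICM the means were 8.55 ± 0.634 in MUT and 7.16 ± 0.927 in WT (SD, n = 5 each).

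**Figure D4:**
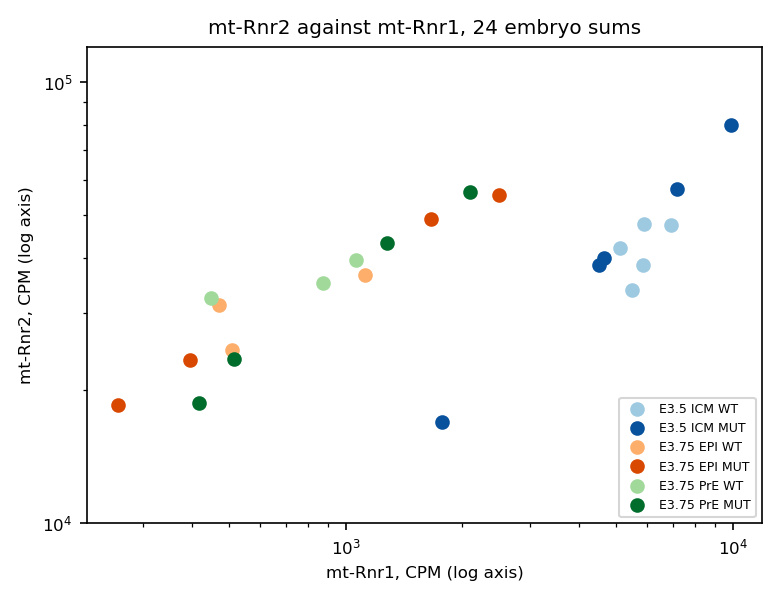
mt-Rnr2 against mt-Rnr1 in CPM, both axes logarithmic, 1 point per embryo sum, coloured by group. ICM sums have ratios of 6.14 to 9.57 and E3.75 sums have ratios of 22.3 to 72.2, while on the mt-Rnr1 axis alone MUT ICM embryo 10 (1775 CPM) lies within the E3.75 range.

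Among MUT embryos of E3.75, rRNA levels followed the title letter. The summed rRNA share was 5.06% and 5.80% in EPI of embryos 1 and 2, which carry letter B, and 2.38% and 1.88% in embryos 4 and 5, which carry letter A. In PrE it was 5.85% and 4.44% under B and 2.40% and 1.92% under A. The letters did not overlap in either lineage.

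WT embryo 3, also of letter A, had 2.52% in EPI and 3.58% in PrE, and WT embryos 1 and 2, of letter C, had 3.28% to 4.06% in PrE and 3.17% and 3.77% in EPI. Trophectoderm markers moved with the letter in MUT EPI, at 509 and 667 CPM under B and 173 and 137 CPM under A, and their part was not tested. Differences between embryos took 92.9%, 91.9% and 63.2% of the variation of cell rRNA shares in MUT EPI, PrE and ICM, and 49.9%, 19.4% and 2.52% in WT EPI, PrE and ICM. Such parts are larger by chance where cells per embryo are few, and no chance level was computed. MUT EPI had 9 cells from 4 embryos, and WT ICM had 64 cells from 5 embryos. The rRNA share was 5.21% ± 2.66 in MUT and 4.77% ± 0.636 in WT ICM, 3.78% ± 1.94 and 3.15% ± 0.625 in EPI, and 3.65% ± 1.83 and 3.64% ± 0.390 in PrE. In each lineage the MUT spread was the wider one. At E3.75 letter B held MUT embryos only, so genotype and letter cannot be told apart in this spread.

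Between the stages, the mRNAs differed in direction. In WT EPI against ICM 3 of 13 were higher and 10 lower, with a median log2 fold change of -0.81 beside -0.14 over all genes tested, and in WT PrE 4 were higher and 9 lower, with -0.52 beside -0.17. In MUT, 4 were higher and 9 lower in both lineages, with medians of -0.34 in EPI and -0.23 in PrE beside -0.06 and -0.06. No mRNA was called by edgeR in any of these comparisons.

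The minus-strand complex I gene mt-Nd6 was higher in every E3.75 sum than in every ICM sum of its genotype. It had 35.6, 40.7, 92.7, 95.1 and 122 CPM in WT ICM, 255, 322 and 249 CPM in WT EPI and 220, 327 and 262 CPM in WT PrE. In MUT it had 15.3 to 149 CPM in the ICM, 242 to 432 CPM in EPI and 181 to 294 CPM in PrE.

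The log2 fold change of mt-Nd6 in WT was 1.51 in EPI and 1.55 in PrE (SE 0.41 and 0.43, edgeR adjusted p = 0.136 and 0.157). In MUT it was 1.60 and 1.15 (SE 0.63 and 0.61, edgeR adjusted p = 0.469 and 0.640). DESeq2 called it in WT EPI and in WT PrE, with adjusted p values of 0.0387 and 0.0295, beside 7.65% and 9.08% of all genes. As a part of all mitochondrial mRNA counts, mt-Nd6 made up 0.148% ± 0.0553 in WT and 0.233% ± 0.159 in MUT ICM, and mean values of 0.545% to 0.805% at E3.75. No source used here states whether counting used the strand, so reads of mt-Nd6 and of plus-strand RNA across it cannot be told apart.

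The complex I subunit mt-Nd4 was higher at E3.75 in WT without passing edgeR's threshold. Its ICM sums held 818 to 1432 CPM in WT and its E3.75 sums 1822 to 2536 CPM, with no overlap, and the log2 fold change was 0.42 in EPI and 0.65 in PrE (SE 0.21 and 0.22, edgeR adjusted p = 0.438 and 0.225). Limma-trend called it in both, at log2 fold changes of 0.82 and 0.98 (adjusted p = 0.0174 and 0.0118). In those limma-trend fits the median of all genes was 0.68 and 0.56, and 29.0% and 15.7% of all genes were called, 3974 higher and 74 lower in EPI and 2012 higher and 59 lower in PrE. In MUT, limma-trend called mt-Nd4 in EPI, at 1.32 (SE 0.32, adjusted p = 0.0435), and not in PrE. The median of all genes in that MUT EPI fit was 0.65, and 1.9% of all genes were called. EdgeR did not call mt-Nd4 in MUT. Sharing with other annotated transcripts covers 62.2% of the 50-base starts of mt-Nd4 and 0.0% of those of mt-Nd1. The part of this sharing in their ratio was not tested. The ratio of mt-Nd4 to mt-Nd1 was 0.0499 to 0.0970 in the ICM sums and 0.111 to 0.222 in the E3.75 sums. No such separation was present for mt-Nd5, at 1707 to 4131 CPM in WT ICM and 2787 to 3859 CPM in WT E3.75, or for mt-Nd2, at 452 to 1599 and 1075 to 1325 CPM.

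No complex IV gene passed edgeR's threshold between the stages. The subunit mt-Co1 had 14793 to 19868 CPM in WT ICM and 10576 to 13175 CPM in WT EPI, and its log2 fold change was -0.83 (SE 0.16, edgeR adjusted p = 0.0624). In WT PrE mt-Co1 had 12982 to 16406 CPM, which overlapped the ICM range, and its log2 fold change was -0.52 (edgeR adjusted p = 0.190). Among genes with near-identical nuclear copies, mt-Co3 had 18.4 to 26.7 CPM in WT ICM and 8.09 to 12.8 CPM at E3.75, and mt-Atp6 had 19.4 to 30.2 and 7.97 to 13 CPM. DESeq2 called both lower in WT EPI and WT PrE, and mt-Co1 and mt-Co2 lower in WT EPI, and edgeR called none of these. Their copies lay lower at E3.75 too, with Gm28437 averaging 22.8 CPM in WT ICM and 8.35 in WT EPI, and Gm10925 averaging 40.6 and 10.3 CPM.

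**Figure D5:**
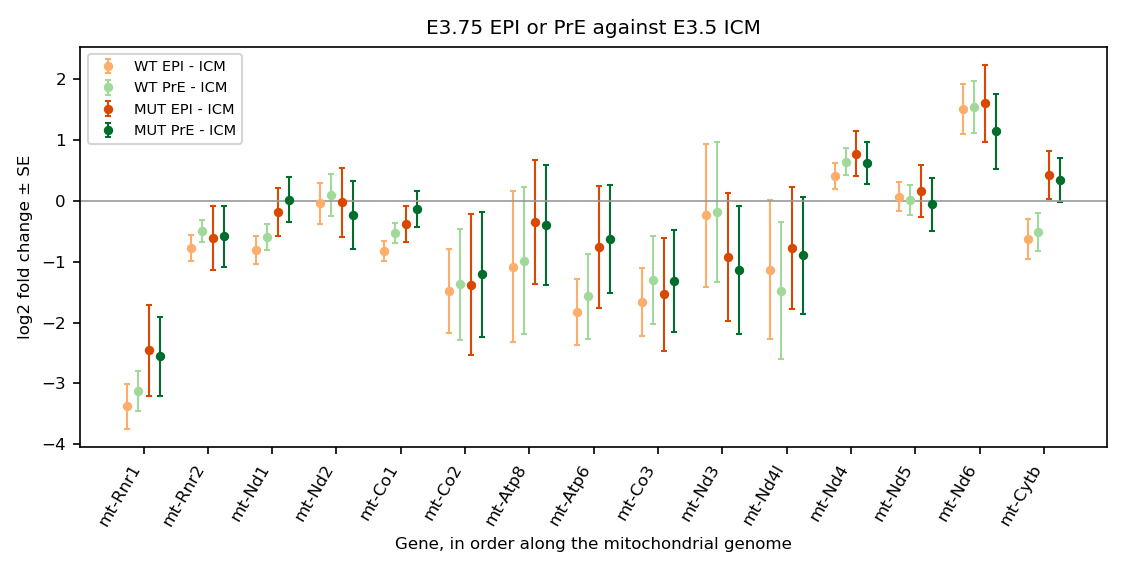
log2 fold change of E3.75 EPI or PrE over E3.5 ICM (points) with SE (bars) for the 15 mRNA and rRNA genes in WT and MUT. mt-Rnr1 is lowest (-3.38 to -2.45), and mt-Nd6 is highest (1.15 to 1.60) in all 4 comparisons.

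No member was called between EPI and PrE. With edgeR 0 of 27 members were called in WT, beside 0.0314% of all genes, and 0 of 25 in MUT, beside 1.65%. No member had an unadjusted p under 0.05, beside 9.35% of all genes in WT and 10.2% in MUT. DESeq2 called 0 members, beside 5.71% and 5.9% of all genes, and limma-trend 0, beside 0.055% and 3.0%. In WT the smallest p values were those of mt-Co1, at a log2 fold change of -0.29 in EPI against PrE (SE 0.15, edgeR adjusted p = 0.698), and mt-Nd4, at -0.22 (SE 0.14). In MUT they were those of mt-Nd6, at 0.51 (SE 0.27, edgeR adjusted p = 0.605), and mt-Tm, the methionine tRNA, at 1.05 (SE 0.58).

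The tRNAs, which carry amino acids to the mitochondrial ribosome, were a trace of the counts. Their share was 0.0171% ± 0.0138 in MUT and 0.0139% ± 0.00939 in WT ICM (n = 5 each). It was 0.0108% ± 0.00145 and 0.00745% ± 0.000667 in MUT and WT EPI and 0.0104% ± 0.00232 and 0.00758% ± 0.00166 in MUT and WT PrE. In EPI each MUT embryo, at 0.00912% to 0.0125%, lay above each WT embryo, at 0.00681% to 0.00814%, and in PrE the ranges overlapped.

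Of the 22 tRNA genes, 15 had a count in some cell and 7 had none. The 7 without a count were mt-Tw, mt-Ty, mt-Ts1, mt-Td, mt-Tk, mt-Tg and mt-Th. Of these, mt-Ts1, mt-Td, mt-Tk and mt-Tg lie between genes that have copies in the chromosome 1 block. Only annotated transcripts were compared, so a second match of these tRNAs between those copies was not tested. At least 10 passed the filter on low counts in each comparison. The glutamine tRNA mt-Tq (chrM:3772-3842, minus strand) had 53607 counts and the proline tRNA mt-Tp (chrM:15356-15422, minus strand) had 51203, while mt-Tf followed with 2221 and the glutamate tRNA mt-Te with 2090. The leading pair is shown, with the 3 bases of mt-Tq that lie over mt-Ti, the isoleucine tRNA of the other strand, in capitals.
mt-Tq: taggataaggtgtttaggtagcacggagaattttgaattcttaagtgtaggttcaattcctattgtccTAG
mt-Tp: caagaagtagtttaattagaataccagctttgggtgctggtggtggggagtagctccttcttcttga
Together they made up mean shares of 81.4% to 92.8% of tRNA counts in the 6 groups. Both genes lie on the strand opposite to most mRNAs, and without a stated strand setting their reads cannot be told apart from plus-strand precursor.

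Levels of mt-Tq varied widely among ICM embryos and little among EPI embryos. It had 193, 7.01, 26, 164 and 46.6 CPM in MUT ICM and 22.5, 17.2, 46.3, 68.3 and 163 CPM in WT ICM. In EPI it had 34.5 to 59 CPM in MUT and 27.8 to 37.6 CPM in WT. The proline tRNA mt-Tp ran from 12 to 170 CPM in MUT ICM and from 23 to 106 CPM in WT ICM. In MUT EPI, mt-Tf had 4.69, 11.6, 0.909 and 3.83 CPM and mt-Te had 3.21, 12.1, 0.664 and 0.871 CPM, the highest being the sum that rests on 1 cell.

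Cells of E3.75 had reads from more tRNA genes, and they were also deeper. The median was 7 genes per cell in MUT and 9 in WT ICM and 13 to 14 in the E3.75 groups. After thinning each cell to 1000000 reads, which left out 8 MUT and 3 WT ICM cells, medians were 4 and 5 in the ICM and 6 to 9 at E3.75. Every cell of the 6 groups had reads of mt-Tq and of mt-Tp. No source used here describes molecular identifiers, so PCR copies may be counted and counting error understates the error of such detection.

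Nuclear genes that transcribe, process or modify mitochondrial RNA, or replicate mitochondrial DNA, were read from a list of 51 symbols. Some genes were listed under more than 1 name, and 48 symbols were in the table. Between genotypes edgeR called 0 of 48 in the ICM, 0 of 47 in EPI and 0 of 48 in PrE, beside 0.0% of all genes each time. At an unadjusted p under 0.05 there were 2, 1 and 1, beside 6.64%, 4.63% and 4.63% of all genes. Median log2 fold changes were -0.38, 0.00 and 0.12, beside -0.05, 0.04 and 0.03 over all genes tested. The smallest p values belonged to Mterf3, a factor of mitochondrial transcription and ribosome assembly, at -1.58 in the ICM (SE 0.65, edgeR adjusted p = 0.734), and to Polrmt, the mitochondrial RNA polymerase, at 1.26 in EPI (SE 0.54, adjusted p = 1.0). In PrE it was 1110008L16Rik, at 1.78 (SE 0.76, adjusted p = 1.0).

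Between lineages 1 of 48 factors was called in MUT, beside 1.65% of all genes. It was Grsf1, which binds mitochondrial RNA in RNA granules. Grsf1 was 2.35 higher on the log2 scale in EPI than in PrE (SE 0.36, edgeR adjusted p = 0.0119). In WT its log2 difference was 1.83 (SE 0.43, adjusted p = 0.234). Between the stages edgeR called 0 factors in each of the 4 comparisons, beside 0.308% and 0.349% of all genes in WT EPI and PrE and 0.0682% and 0.507% in MUT EPI and PrE. At an unadjusted p under 0.05 there were 7 of 48 in WT EPI and 8 of 48 in WT PrE, near the background of 14.1% and 14.8% of all genes, and 1 of 47 in MUT EPI and 2 of 48 in MUT PrE, beside 8.08% and 9.46%.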

How the data were processed

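The authors deposited raw counts per gene, whole numbers for each cell, with no normalization. STAR, HTSeq and mm10 are named per the submitters' processing notes. No source used here gives versions, read length, strand setting, library method or the treatment of multiply matching reads. All per-sample columns were used. Gene names, positions and sequences came from GENCODE vM21 transcripts of the same build, and 49412 of 49671 identifiers matched. Members and lists were chosen with earlier results of these data known.

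Counts were summed over all cells of an embryo and lineage. No cell was removed and doublets were not searched for. P-values measure the spread between embryos. Levels are CPM of all counts of a sum. Each comparison used all genes and only the groups compared, except the interactions, which used all sums. EdgeR 4.0.16 in R 4.3.3 gave quasi-likelihood tests after TMM scaling. Low genes were dropped by filterByExpr (minimum count 10), and the threshold was a Benjamini-Hochberg adjusted p of 0.05. An SE is the absolute log2 fold change over the square root of F and restates the test. The procedure was run on simulated data with large changes planted in genes above the median level. That run does not measure power for smaller changes, lower genes or genes of wide spread. Summed shares, ratios and detection carry no test.

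Levels were to be given for Stat3, all mRNAs and rRNAs and the 4 tRNAs with the highest mean CPM. Folds were to be given for members past the threshold (the 4 largest of each class) and, where none passed, for the 2 of smallest p. Factors were named where called, and otherwise the 1 of smallest p between genotypes. Other members with separated or overlapping groups were described after their values were seen, as were the nuclear copies by shared sequence. Alternatives were DESeq2's size factors (RLE), scaling to nuclear counts, no filter, DESeq2 1.42.0, limma-trend (limma 3.58.1) on means over cells of log2(CPM + 1), removal of 7 shallow cells (3 median absolute deviations) or of sums holding 1 cell, leaving out each embryo, sex, title letter and the replicate block.

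EPI and PrE sums with the same number in a genotype come from the same embryo. Correlations of their deviations from group means, over 7971 genes, were 0.106 to 0.185 in WT and 0.0480 to 0.120 in MUT. Python 3.11.15, numpy 2.4.6, pandas 2.3.3, scipy 1.17.1 and matplotlib 3.10.9 were used for the rest.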

Additional observations from a re-analysis of the deposited data

Results flagged for a closer look

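Of 88 checks of named members and class shares in groups of 4 or 5 embryos, 2 had a sample far from the others, and chance gives such a gap in about 1 group in 20. In MUT PrE, mt-Co1 had 19653 CPM in embryo 1 against 11200 to 11956 CPM in the other three. In MUT ICM, mt-Te had 5.17 CPM in embryo 2 against 0.213 to 0.616 CPM in the others.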

How the results depend on the processing

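Counts of members called moved most with the choice of test in the stage comparisons. In WT EPI against ICM the count was 1 with edgeR, 6 with DESeq2 and 4 with limma-trend, where 0.308%, 7.65% and 29.0% of all genes were called, and 0 to 1 with an embryo left out. In WT PrE against ICM it was 1, 4 and 3, beside 0.349%, 9.08% and 15.7%, and 0 to 1 with an embryo left out. In MUT EPI against ICM it was 0, 1 and 2, beside 0.0682%, 3.53% and 1.9%. In MUT PrE against ICM it was 0, 1 and 1, beside 0.507%, 4.62% and 5.23%, with 1 called without the low-count filter and 0 to 1 with an embryo left out. With the title letter in the model, 2 members were called between genotypes in the ICM. The other 127 of 141 recomputed counts did not move. With the replicate block, which pairs EPI and PrE sums of an embryo, members called stayed at 0 in both lineage comparisons, while all genes called fell from 177 to 74 in MUT and from 4 to 0 in WT. Between genotypes the numbers pair different embryos, and the count with the block was also 0 in EPI and PrE. With sex in the model, 217 genes were called between genotypes in PrE against 0 without it, and 0 members. The log2 ratio of MUT over WT for the mRNA share moved to 0.15 in EPI and -0.38 in PrE within letter A, which there holds 1 WT embryo, from 0.00 and -0.09. For the rRNA share in PrE it moved to -0.73 within letter A, and for the tRNA share in the ICM, at 0.30 over all letters, it was 0.14, 1.41, -1.33, 1.03 and 1.32 within letters D, E, F, G and H. RLE scaling moved the median of all genes by -0.13 in the PrE against ICM interaction and by less than 0.1 elsewhere. The mean over cells gave tRNA shares of 0.0315% and 0.0257% in MUT and WT ICM, against 0.0171% and 0.0139% from the sums, and the cause was not tested. Removing shallow cells moved the log2 ratio of the tRNA share in the ICM from 0.30 to 0.28.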
